A study of Bos taurus with 4 samples.

Results

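The insulin-like growth factor (IGF) system was followed in bovine intramuscular preadipocytes through 10 genes: the ligands IGF1 and IGF2, the receptors IGF1R and IGF2R, and the binding proteins IGFBP2 to IGFBP7. Every non-control probe whose gene name in the array files was one of these symbols was taken, which gave 36 probes of the 43653 on the array, for 10 of its 25232 gene names. Of these, 34 passed the filter on dim probes, which asks that the 3 arrays of some group all read the probe well above background, and 31207 probes in all were tested. The other 2, both IGF2 probes, are described with that gene.

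IGF1 and IGF2 are small secreted growth factors that act mainly through IGF1R, a tyrosine kinase that is close kin of the insulin receptor. IGF2R, also the cation-independent mannose phosphate receptor, binds IGF2 and carries it to lysosomes. The IGF binding proteins are secreted carriers that hold the ligands away from the receptor or deliver them to it, and proteases release the ligand. In fat tissue, IGF1 and insulin signals promote the differentiation of preadipocytes, and stromal cells are a major source of both ligands and binding proteins.

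The cells, called BIP, were harvested at confluence (day 0, untreated) or after 6 days of adipogenic stimulation without retinoid (day 6 control), with 1 µM ATRA or with 1 µM 9cRA. ATRA is all-trans retinoic acid and 9cRA its 9-cis isomer, which differ in the configuration of a double bond. All day 6 groups shared the same medium, with 10% serum, 50 ng/mL insulin, dexamethasone at 0.25 µM, acetic acid at 10 mM and octanoate at 5 mM, renewed every 2 days, so insulin itself was present in each. The medium of the day 0 cells is not described beyond a reference to earlier work. The day 6 groups were harvested at the same time, so a retinoid difference is measured against the control and is not a later step after it. RNA of each of the 4 groups was read on 3 single-colour arrays, and nothing says whether the 3 came from separate cultures, so the p-values speak only of array-to-array spread, and that may be technical. Levels are log2 signals relative to the 75th percentile of the same array, and a probe's level on an array is compared only with the same probe on other arrays. The summed marker levels below add the signals of different probes, so the brightest marker of a list carries its sum.

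Across the 12 arrays, 64.8 to 74.0% of probes passed the scanner software's test against background, with no saturated spot. Array 1 of the day 6 control stood apart, with the lowest of these shares and 110 of the 191 spots marked as outliers. The arrays lay on 3 slides: all day 0 arrays with array 1 of the day 6 control, the other 2 day 6 control arrays with 2 of ATRA, and the last of ATRA with all of 9cRA. All 9 stromal markers were above background on every array, PDGFRA and DLK1 among them, with a summed level of 8.32 to 8.41 at day 0, 8.62 to 8.75 in the day 6 control, 8.40 to 8.57 with ATRA and 8.48 to 8.52 with 9cRA. Single stromal markers went both ways. In the same order, the means of PDGFRA were 1.08, 3.20, 4.58 and 4.49. Those of PDGFRB were -0.22, -2.11, -1.95 and -1.65, and those of THY1 5.01, 5.28, 3.52 and 3.58. Of 6 adipocyte markers 4 were above background on every array, with ADIPOQ on none. The summed adipocyte level was 4.90 to 5.07 at day 0, 6.63 to 6.88 in the day 6 control, 5.13 to 5.17 with ATRA and 5.01 to 5.24 with 9cRA. FABP4 carried the changes of that sum, with means of 1.92, 6.26, 1.33 and 1.63 in the same order, whereas with ATRA PPARG, CEBPA, LPL and PLIN1 were not called against the control. With culture the mean of PPARG went from -2.34 to -0.52 and that of LPL from -4.60 to -2.10. That of CEBPA went from 4.79 to 4.92 and that of PLIN1 from -5.26 to -5.56. With 9cRA the means of PPARG, CEBPA, LPL and PLIN1 were -0.46, 4.97, -1.97 and -5.40. Of 6 muscle markers 3 were above background on all arrays, DES and MYOD1 included but MYF5 on none, and their summed level was 6.13 to 6.23 at day 0, 5.39 to 5.55 in the control, 4.28 to 4.31 with ATRA and 4.40 to 4.50 with 9cRA. That fall was DES, with means of 6.12, 5.38, 4.07 and 4.24, while the means of MYOD1 were 1.02, 1.20, 1.45 and 1.51. Those of MYOG were -4.45, -4.02, -3.81 and -3.98. MYH3 was above background on no day 0 array and on all day 6 arrays, with day 6 means of -3.42, -2.98 and -3.05. Of 5 endothelial markers 2, VWF and TEK, were above background on every array, with PECAM1 on none. The endothelial sum was -2.96 to -2.74 at day 0 and -2.59 to -2.05 in the control. It was -1.13 to -0.88 with ATRA and -1.37 to -1.02 with 9cRA. With culture the mean of VWF fell from -3.56 to -3.96, whereas that of TEK rose from -5.10 to -3.47. With ATRA the means of VWF and TEK were -1.61 and -3.04, so VWF carried most of that rise. VWF rose more than TEK with 9cRA too, where TEK was -3.26. PECAM1 and CDH5 were too dim to be tested. Of 5 leukocyte markers 3 were above background on every array, PTPRC and CD14 included but ITGAM on none. The leukocyte sum was 0.93 to 1.15 at day 0 and 0.47 to 1.08 in the control. It was 2.02 to 2.09 with ATRA and 1.93 to 2.07 with 9cRA. The part of these marker changes in the results that follow was not tested. In RNA from whole cultures, fewer cells of a type and less RNA per cell cannot be told apart.

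Some probe sequences bear on how the values are read. Both ligands have a probe in the same stretch of the hormone. Without gaps, 41 of 53 aligned bases (77.4%) were identical between them, shown in capitals. Each sequence runs 5′ to 3′ with its position in the UMD 3.1 assembly.
IGF1, chr5:66548405-66548464, reverse strand: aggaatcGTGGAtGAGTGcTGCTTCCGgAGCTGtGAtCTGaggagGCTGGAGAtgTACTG
IGF2, chr29:50061609-50061668, forward strand: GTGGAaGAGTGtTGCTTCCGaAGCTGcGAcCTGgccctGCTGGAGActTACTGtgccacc
The IGF2 probe with the start 3556 bases farther along the forward strand, at chr29:50065165-50065224, holds AATAAA, the usual polyadenylation signal. Only the 26 bases around it are shown, with the hexamer in capitals.
IGF2, downstream probe: tcgctcgcaatcccAATAAAgcattt
AATAAA was on the strand of 3 of the 36 probes, and of 9.35% of all 43653 probes; on the opposite strand it was in none of the 36 and in 3.46% of all. The 3 were the IGF2 probe shown, the IGF2 probe that overlaps it by 54 bases, and an IGF2R probe.

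For the binding proteins that changed most, the probes shown cross a splice junction, by a genome span longer than the probe, or hold an open frame that ends on a stop codon. The IGFBP3 and IGFBP6 probes below span 534 and 827 bases of the genome. The IGFBP5 probe spans 60 bases, so it crosses no junction, and 1 of its frames is open up to the stop codon in capitals.
IGFBP3, chr4:76708763-76709296, forward strand: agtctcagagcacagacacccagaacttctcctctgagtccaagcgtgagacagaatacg
IGFBP5, chr2:105379127-105379186, reverse strand: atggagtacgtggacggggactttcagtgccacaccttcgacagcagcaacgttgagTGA
IGFBP6, chr5:27044300-27045126, reverse strand: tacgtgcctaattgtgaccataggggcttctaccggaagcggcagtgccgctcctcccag
The 2 probes of IGFBP4 went opposite ways with the retinoids, and 1 of them is a TG repeat, of which 30 bases are shown with TG in capitals.
IGFBP4, part of chr19:41337314-41337373, forward strand: TGTGtcTGTGTGtaTGTGTGTGTGcgTGTG
That probe holds 16 TG pairs, a count reached by 7 of all 43653 probes (0.016%).

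Culture for 6 days raised some members of the system and lowered others, and both retinoids mostly raised them. Between day 0 and the day 6 control, IGF1, IGFBP3 and IGFBP5 rose on all their tested probes, IGFBP2 and IGFBP6 fell on all of theirs, IGF1R fell on the only probe filed under its name and IGF2R fell on 1 of 3 probes. IGF2 probes went both ways, and IGFBP4 and IGFBP7 were not called. With either retinoid, IGFBP3, IGFBP5, IGFBP6 and IGFBP2 were higher than in the day 6 control on every tested probe and IGF2 on 9 of 12, whereas no probe of IGF1, IGF1R, IGF2R or IGFBP7 was called.

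In numbers, 15 of 34 tested probes (44.1%) rose and 7 (20.6%) fell from day 0 to the day 6 control, where 28.6% of all tested probes rose and 33.1% fell. Some of the 34 were dim at day 0 and passed the filter through a day 6 group, which favours a rise. Leaving out each probe that any day 0 or control array read too dimly kept 30, of which 12 rose and 7 fell. The median difference over the 34 was 0.17, against -0.03 over all. With ATRA, 21 (61.8%) were higher and 1 (2.94%) lower than in the day 6 control, where 21.9% and 21.5% of all tested probes were. The median was 0.95, against 0.04 over all. With 9cRA the counts were again 21 and 1, with 22.7% and 20.9% over all, and the medians were 1.07 and 0.05. IGF2 supplies 12 of the 34 probes and several overlap; without it, 12 of 22 probes were higher and 1 lower with each retinoid, with medians of 0.45 for ATRA and 0.51 for 9cRA. With slide as a block, the medians of the 34 were 0.17 for culture, 0.88 for ATRA and 0.87 for 9cRA, and 21 of 22, 20 of 22 and 18 of 22 calls kept their direction. For culture and for ATRA the block value equals the difference within the shared slide, while 9cRA and the day 6 control share no slide and are linked only through ATRA.

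**Figure D1:**
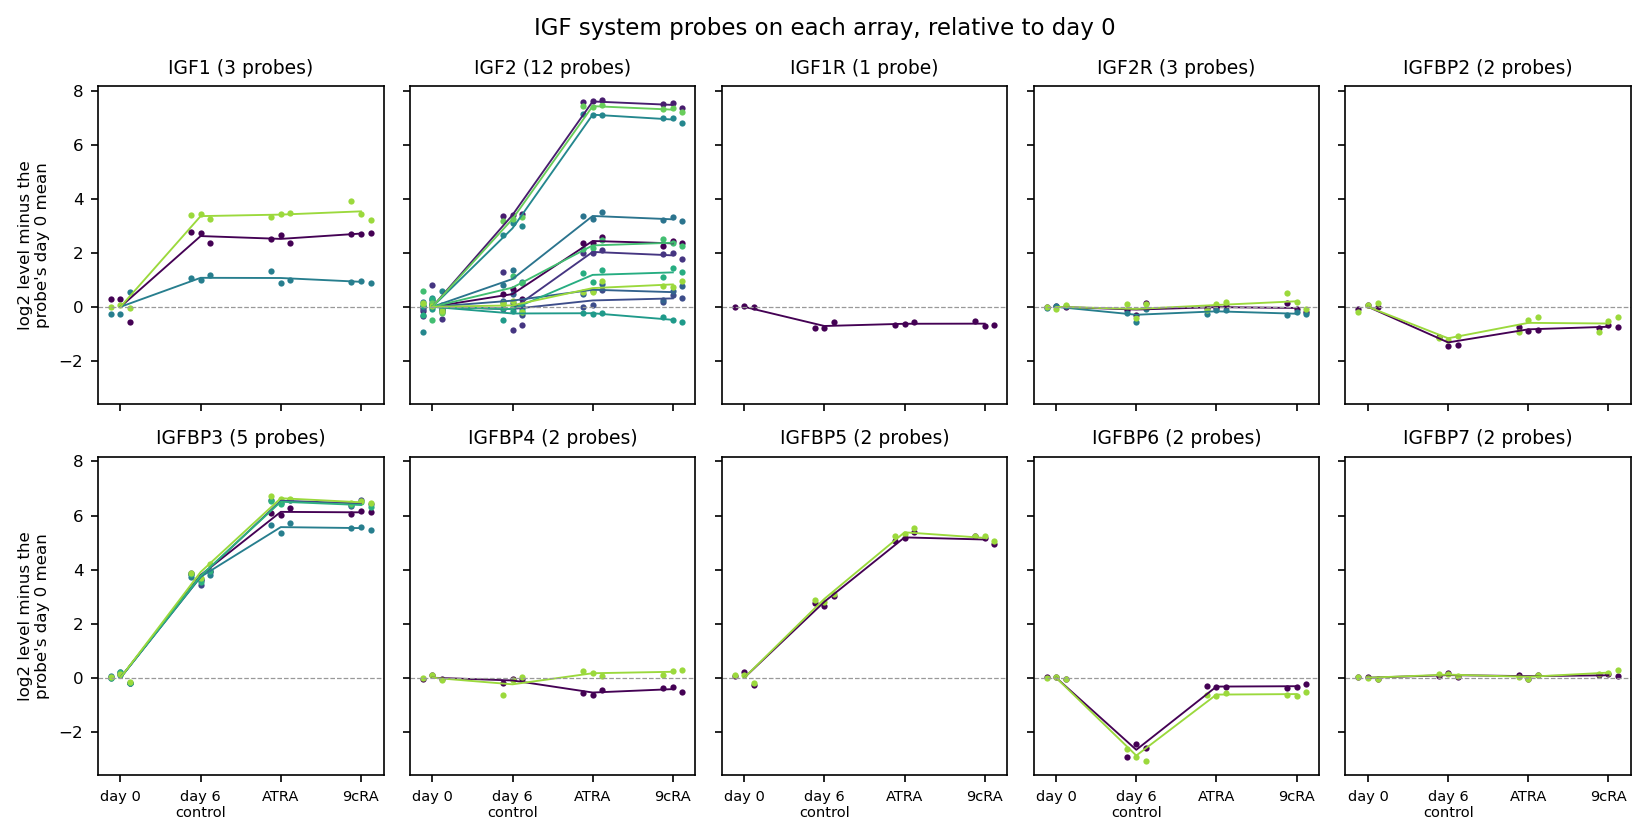
Each panel plots the tested probes of 1 gene: points are single arrays (3 a group) and lines join group means, as the log2 level minus that probe's day 0 mean. IGFBP3 and IGFBP5 are higher in the day 6 control than at day 0 and higher still in the retinoid groups. IGFBP6 is low in the day 6 control (-2.67 and -2.88) and closer to day 0 in the retinoid groups. IGF1 is higher in all day 6 groups, and the 12 IGF2 probes fan out.

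IGF1, the ligand that GH and local signals induce, rose with culture and was not called with either retinoid. Its probe of highest signal (the one shown above) read -5.33, -5.26 and -5.36 at day 0, then -1.92, -1.88 and -2.07 in the day 6 control, -1.98, -1.90 and -1.83 with ATRA, and -1.39, -1.87 and -2.09 with 9cRA. The day 0 arrays lay apart from all others, and the 3 day 6 groups overlapped. The rise was 3.35 ± 0.15 (SE), 10.2-fold (adjusted p = 1.69e-08). The other 2 probes rose by 2.62 and 1.07, so the size depended on the probe; the former was above background on 2 of the 3 day 0 arrays. With normexp background correction, which adds an offset of 50 to each signal, the 3 rises were 1.98, 1.20 and 0.38, all still called. Retinoid differences of the 3 probes lay between -0.15 and 0.18, with adjusted p from 0.35 to 0.98. For the probe shown, the 95% interval was -0.27 to 0.38 for ATRA minus control and -0.15 to 0.50 for 9cRA minus control.

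IGF2, the ligand that is abundant in fetal and stromal tissue, gave answers that depended on where the probe lay. On the downstream probe with AATAAA, levels were -5.52, -5.49 and -5.83 at day 0, -2.44, -2.36 and -2.30 in the day 6 control, 1.80, 1.79 and 1.84 with ATRA, and 1.69, 1.74 and 1.61 with 9cRA. No group overlapped another. The signal rose by 3.25 ± 0.09 (SE) with culture, 9.50-fold. Against the control it was higher by 4.17 ± 0.09 with ATRA, 18.1-fold, and by 4.04 ± 0.09 with 9cRA, 16.5-fold. The adjusted p of the limma fit were 5.68e-10, 3.44e-10 and 4.62e-10. Its overlapping neighbour rose by 3.40, 4.20 and 4.07, although it was above background on only 1 of 3 day 0 arrays. With normexp correction the culture rises of the pair were 1.78 and 1.66.

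The IGF2 probe that matches IGF1 in the hormone did not follow. It read -0.86, -0.98 and -0.81 at day 0, -1.37, -1.05 and -0.97 in the day 6 control, -1.11, -1.15 and -1.11 with ATRA, and -1.27, -1.38 and -1.44 with 9cRA. The control group's own arrays spanned most of the range, with array 1 the lowest of them, and overlapped day 0 and both retinoids. From day 0 to the day 6 control the signal fell by 0.25 ± 0.10 (SE, adjusted p = 0.049), a call lost without any of 9 of the 12 arrays, with a difference of -0.12 without array 1 of the day 6 control and -0.49 with slide as a block. With ATRA the difference from the control was 0.01, with a 95% interval of -0.21 to 0.23, which does not reach the interval of the downstream probe, 3.98 to 4.37. With 9cRA it was -0.23 (adjusted p = 0.076), or -0.36 without array 1 of the day 6 control (adjusted p = 0.0027), and against day 0 9cRA was lower by -0.48 (adjusted p = 0.0013), or -0.86 with slide as a block.

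In order along the forward strand, the 3 tested IGF2 probes up to and including that one were not called with either retinoid, and the 9 downstream of it were all higher with both. Counted from the start of the probe matched to IGF1, the first, at -15029 bases, read between -4.68 and -3.77 over the 12 arrays, and the second, at -1631 bases, between -1.19 and -0.18. Their ATRA differences were 0.32 and 0.40, with adjusted p of 0.14 and 0.061, and their 9cRA differences 0.39 and 0.31, with adjusted p of 0.073 and 0.13. These lay near the threshold: the nearer probe was called with ATRA without any of 3 arrays (0.40 to 0.52) and with 9cRA without 9cRA array 1 (0.45), and the farther with 9cRA without day 6 control array 2 (0.50) or ATRA array 3 (0.39). Of the 9 downstream probes, the 3 that begin 945 to 973 bases on share runs of 32 to 50 bases, so they are not separate evidence. With culture the first and second of them rose by 0.47 and 1.03. With ATRA the 3 rose by 1.96, 2.33 and 4.20, and with 9cRA by 1.88, 2.21 and 4.02. The last of them was not well above background on any day 0 array and was at least 3.61-fold higher in the day 6 control, at least 66.4-fold higher with ATRA and at least 58.7-fold higher with 9cRA. These bounds set the bright group's mean against the lowest signal well above background, in the main fit. With normexp correction the differences of this probe from day 0 were 0.81 in the control, 4.12 with ATRA and 3.95 with 9cRA. As folds these are smaller than the bounds. Its levels with ATRA were -0.04, -0.06 and -0.05, against -4.50, -4.06 and -4.18 in the control, with a wide gap between them.

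Farther along, the 3 probes that start 2334 to 2562 bases downstream, of which the first 2 share a run of 25 bases, rose less. Their ATRA differences were 1.56, 0.64 and 1.27 and their 9cRA differences 1.66, 0.78 and 1.36, and none was called for culture. The first of them was above background on 1 day 0 array and 2 control arrays, and its difference with culture, 0.71 (adjusted p = 0.051), was called without day 0 array 1 or day 6 control array 1 (about 1.00, adjusted p = 0.0086 and 0.0076). With slide as a block, the 9cRA differences of the first 2 were 1.05 and 0.42 and were no longer called (adjusted p = 0.13 and 0.22), and on the shared slide alone the ATRA call of the second was lost (0.55, adjusted p = 0.054). With normexp correction the first had differences of 0.74 and 0.78, the second 0.42 and 0.50, and the third 0.85 with 9cRA, all called. The probe 649 bases downstream read -3.64, -5.77 and -5.59 in the control, so array 1 stood apart. It rose by 2.11 with ATRA and 1.98 with 9cRA, or by 2.79 and 2.66 without that array and by 1.12 and 1.06 with normexp correction, and its culture difference was -0.08, or -0.76 without that array (adjusted p = 0.052) and 1.28 with slide as a block, where that array alone stands for the control (adjusted p = 0.029). The labelled RNA was made with a poly dT primer at the 3′ end; the part of this, of probe sequence or of different IGF2 transcripts in the disagreement was not tested.

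Of the 2 untested IGF2 probes, 1 lay at -6376 bases on the same count and the other has no position in the files. The first was above background on 1 ATRA and 1 9cRA array, at -4.51 and -4.23, with all its other values between -8.45 and -7.35. The second was above background on no array.

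**Figure D2:**
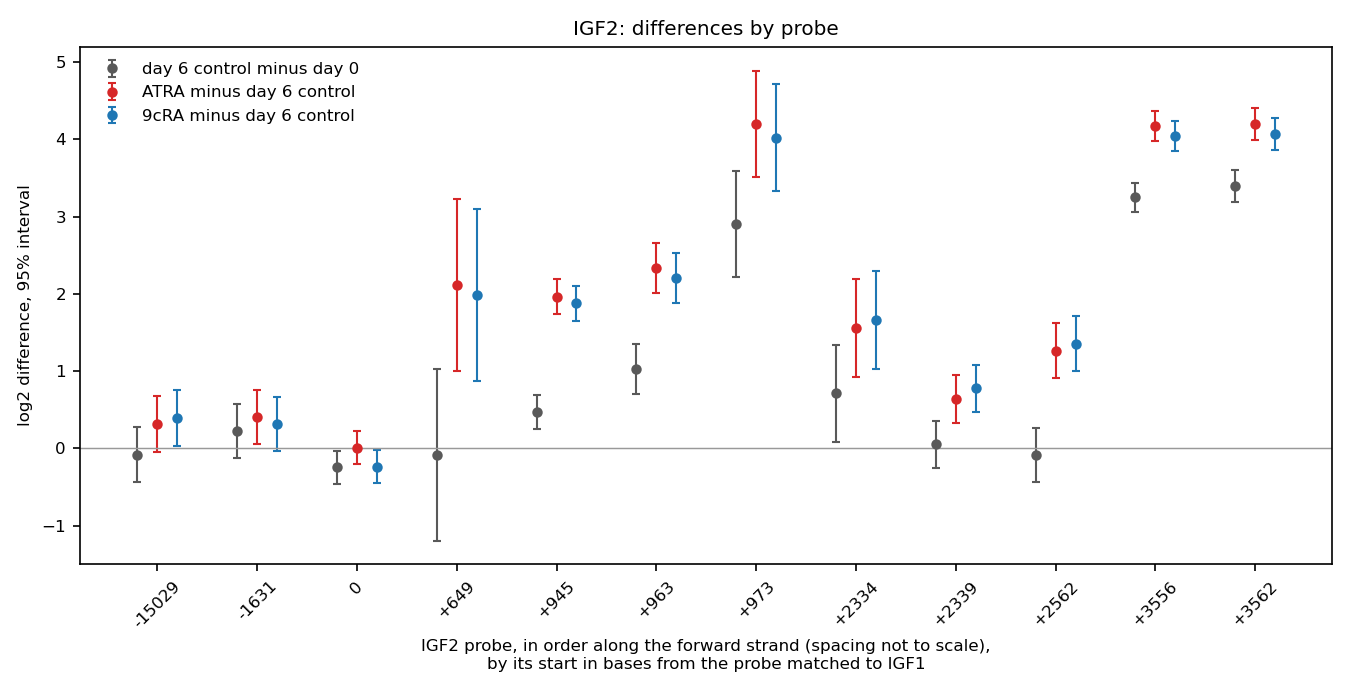
Log2 differences with 95% intervals for the 12 tested IGF2 probes in order along the forward strand, from the fit over all 12 arrays; tick labels give each start in bases from the probe matched to IGF1. Retinoid differences lie between -0.23 and 0.40 up to that probe, none of them called, and between 0.64 and 4.20 downstream of it.

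The receptors moved little. IGF1R, the signalling receptor, read -1.05, -1.02 and -1.03 at day 0 and -1.82, -1.81 and -1.59 in the day 6 control, with no overlap, a fall by 0.71 ± 0.07 (SE, adjusted p = 1.22e-05), or 1.64-fold. It was -1.70, -1.67 and -1.60 with ATRA and -1.55, -1.73 and -1.69 with 9cRA, which overlap the control. Differences from the control were 0.08 and 0.09 (adjusted p = 0.39 and 0.36). A further probe, described as IGF1R but filed as TC394509, was not called in any comparison, with a culture difference of -0.26 (adjusted p = 0.24). IGF2R, the clearance receptor, stayed between 3.79 and 4.25 on all 12 arrays by its brightest probe, with no comparison called. A second probe, which spans 1010 bases of the genome, fell by 0.29 with culture (adjusted p = 0.028). That call was lost without day 0 array 2 or 3 or day 6 control array 2, the value being -0.17 in the last case, and with slide as a block (-0.25, adjusted p = 0.22). The same probe was lower with 9cRA than at day 0 by -0.26 (adjusted p = 0.044), a call lost without any of 10 arrays; with median scaling it was -0.39. The third IGF2R probe was not called in any comparison.

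IGFBP3, the main IGF carrier of blood, was higher in the day 6 control than at day 0, and higher still with retinoid, on all 5 probes. The probe of highest signal gave 2.41, 2.45 and 2.16 at day 0, 6.08, 5.97 and 6.15 in the day 6 control, 7.98, 7.68 and 8.06 with ATRA, and 7.88, 7.92 and 7.81 with 9cRA. Gaps separated the groups, except that the retinoid groups overlapped. Culture raised the 5 probes by 3.73 to 3.91 (13.3- to 15.0-fold). Against the control, ATRA cells were higher by 1.84 to 2.82 (3.58- to 7.05-fold) and 9cRA cells by 1.80 to 2.71 (3.49- to 6.56-fold). The largest adjusted p among these was 4.03e-07. The probe of highest signal had the smallest retinoid difference, and the junction-crossing probe shown above the largest. Against day 0, ATRA cells stood 47.5- to 99.7-fold higher and 9cRA cells 46.3- to 89.8-fold. With slide as a block the retinoid differences were 1.77 to 2.87 and 1.58 to 2.73.

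IGFBP5, a carrier that also binds extracellular matrix, followed the same course. The probe with the stop codon read 0.96, 1.09 and 0.63 at day 0, 3.64, 3.56 and 3.92 in the day 6 control, 5.93, 6.05 and 6.27 with ATRA, and 6.12, 6.08 and 5.82 with 9cRA. Gaps again separated the groups, except the retinoids from each other. Its rise was 2.81 ± 0.14 (SE) with culture, 2.38 ± 0.14 with ATRA and 2.30 ± 0.14 with 9cRA. The other probe, which spans 14910 bases of the genome, rose by 2.92, 2.46 and 2.25. All adjusted p of these were at most 5.83e-07. In all, ATRA cells were 36.5- to 41.6-fold above day 0. A further probe, filed under the name TC425856 but described as IGFBP5, rose by 3.04, 2.59 and 2.47 in the same comparisons.

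IGFBP6, which prefers IGF2 over IGF1, took the opposite course in culture. It read 6.89, 6.89 and 6.84 at day 0 and 3.93, 4.44 and 4.26 in the day 6 control, then 6.57, 6.52 and 6.55 with ATRA and 6.50, 6.53 and 6.66 with 9cRA. The day 6 control stood alone at the bottom, and all retinoid arrays lay just under day 0. Culture lowered it by 2.67 ± 0.11 (SE), 6.35-fold, and the junction-crossing probe fell by 2.88, 7.36-fold (adjusted p = 9.53e-09 and 1.92e-09). ATRA cells stood above the control by 2.34 and 2.26 on these probes, 9cRA cells by 2.35 and 2.27 (adjusted p at most 5.62e-08). Against day 0 both probes were still lower: with ATRA by -0.33 and -0.62 (adjusted p = 0.019 and 0.000134), with 9cRA by -0.31 and -0.60 (adjusted p = 0.023 and 0.000175). The smaller of these differences lost its call without ATRA array 2 (-0.32, adjusted p = 0.0503), and for 9cRA without any of 4 arrays (adjusted p from 0.056 to 0.070). Quantile normalization ended both (-0.15 and -0.17), and slide as a block ended the 9cRA call of the other probe (-0.35, adjusted p = 0.084). With the block, the brighter probe stood -0.75 and -0.74 below day 0 with ATRA and 9cRA, and the other -0.31 with ATRA.

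IGFBP2, a binding protein made by preadipocytes, was lower in the day 6 control than at day 0, and lower by less with retinoid. The brighter probe gave -0.86, -0.70 and -0.78 at day 0, -1.90, -2.22 and -2.18 in the day 6 control, -1.55, -1.68 and -1.63 with ATRA, and -1.55, -1.47 and -1.55 with 9cRA. The control was lowest and the retinoid groups lay between it and day 0 without overlap. The fall was 1.32 ± 0.08 (SE, adjusted p = 3.07e-07), with differences of 0.48 for ATRA and 0.58 for 9cRA from the control (adjusted p = 0.000931 and 0.000286). The dimmer probe fell by 1.16 and gave 0.57 and 0.55 for the retinoids (adjusted p = 0.020 and 0.024). Those last calls were lost with slide as a block (0.45 and 0.19, adjusted p = 0.13 and 0.73) and without any of 3 arrays for ATRA or 4 for 9cRA (adjusted p from 0.054 to 0.086). Both probes remained below day 0 with either retinoid, by -0.59 to -0.83, although with slide as a block the brighter was -0.53 and -0.43 and the dimmer was not called (-0.72 and -0.98, adjusted p = 0.096 and 0.088).

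IGFBP4, an inhibitor of IGF action that the protease PAPPA cleaves, had 2 probes with retinoid calls of opposite sign. The probe at chr19:41338162-41338221 read 3.38, 3.54 and 3.52 in the day 6 control, 3.01, 2.95 and 3.15 with ATRA and 3.19, 3.23 and 3.07 with 9cRA. Both retinoids were below all control arrays, by -0.45 and -0.32 (adjusted p = 0.000920 and 0.0071), the latter -0.54 with slide as a block. The TG-repeat probe read 2.97, 3.53 and 3.64 in the control, 3.86, 3.81 and 3.71 with ATRA and 3.74, 3.87 and 3.93 with 9cRA, so both retinoids were above all control arrays. Its differences were 0.41 and 0.46 (adjusted p = 0.045 and 0.028). Without array 1 of the control they were 0.21 and 0.26 (adjusted p = 0.080 and 0.034), and with slide as a block 0.25 and 0.39 (adjusted p = 0.062 and 0.085). The ATRA call was lost without any of 10 of the 12 arrays, and the 9cRA call without 9cRA array 2 or 3. Neither probe was called for culture, although the TG-repeat probe was with slide as a block (-0.65, adjusted p = 0.0010), where the control is its array 1 alone. Which probe tracks the IGFBP4 message was not tested.

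IGFBP7, which binds IGFs weakly, moved least of the binding proteins. Its 2 probes, which share 36 bases, read 6.95 to 7.20 and 7.11 to 7.42 over the 12 arrays. Differences from the day 6 control lay between -0.08 and 0.07. The only call was a difference of 0.19 between 9cRA and day 0 on 1 probe (adjusted p = 0.015), lost without day 0 array 3 or 9cRA array 3 (adjusted p = 0.052 and 0.060), with median scaling (0.058) and with slide as a block (0.082). Quantile normalization called both probes higher with culture (0.26 and 0.28, adjusted p = 0.0061 and 0.00062). Against day 0 it also called both with ATRA (0.19 and 0.18, adjusted p = 0.028 and 0.0065). The same held for 9cRA (0.19 and 0.31, adjusted p = 0.030 and 0.00023).

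The 2 retinoids were compared as 1 pair at the same dose and time, over the same 34 probes. No member probe differed between 9cRA and ATRA at an adjusted p under 0.05 (limma), where 0.0513% of all tested probes were higher and 0.0993% lower with 9cRA. The differences ran from -0.24 to 0.20, with a median of -0.03 against 0.02 over all, and the smallest adjusted p was 0.42. At an unadjusted p under 0.05 there were 2 of the 34, against 3164 of 31207, and on 8 of the 34 probes the 3 arrays of each group did not overlap, where 16.5% of all tested probes did not. The missing calls do not show that the isomers act alike, and the intervals cover only the spread between arrays, in a fit without slide. With slide as a block the IGF2 probe at -15029 bases went from 0.08 to -0.32, the largest shift, and an IGFBP5 probe from -0.21 to -0.38, and no member was called. For IGFBP3's brightest probe the interval was -0.28 to 0.20, for IGFBP6's -0.22 to 0.25, and for the downstream IGF2 probe -0.32 to 0.06. The widest, -1.24 to 0.98, belonged to the IGF2 probe 649 bases downstream. The 2 probes with an unadjusted p under 0.05 were the IGF2 probe matched to IGF1 (-0.24, interval -0.46 to -0.03) and an IGFBP7 probe (0.15, interval 0.02 to 0.29).

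**Figure D3:**
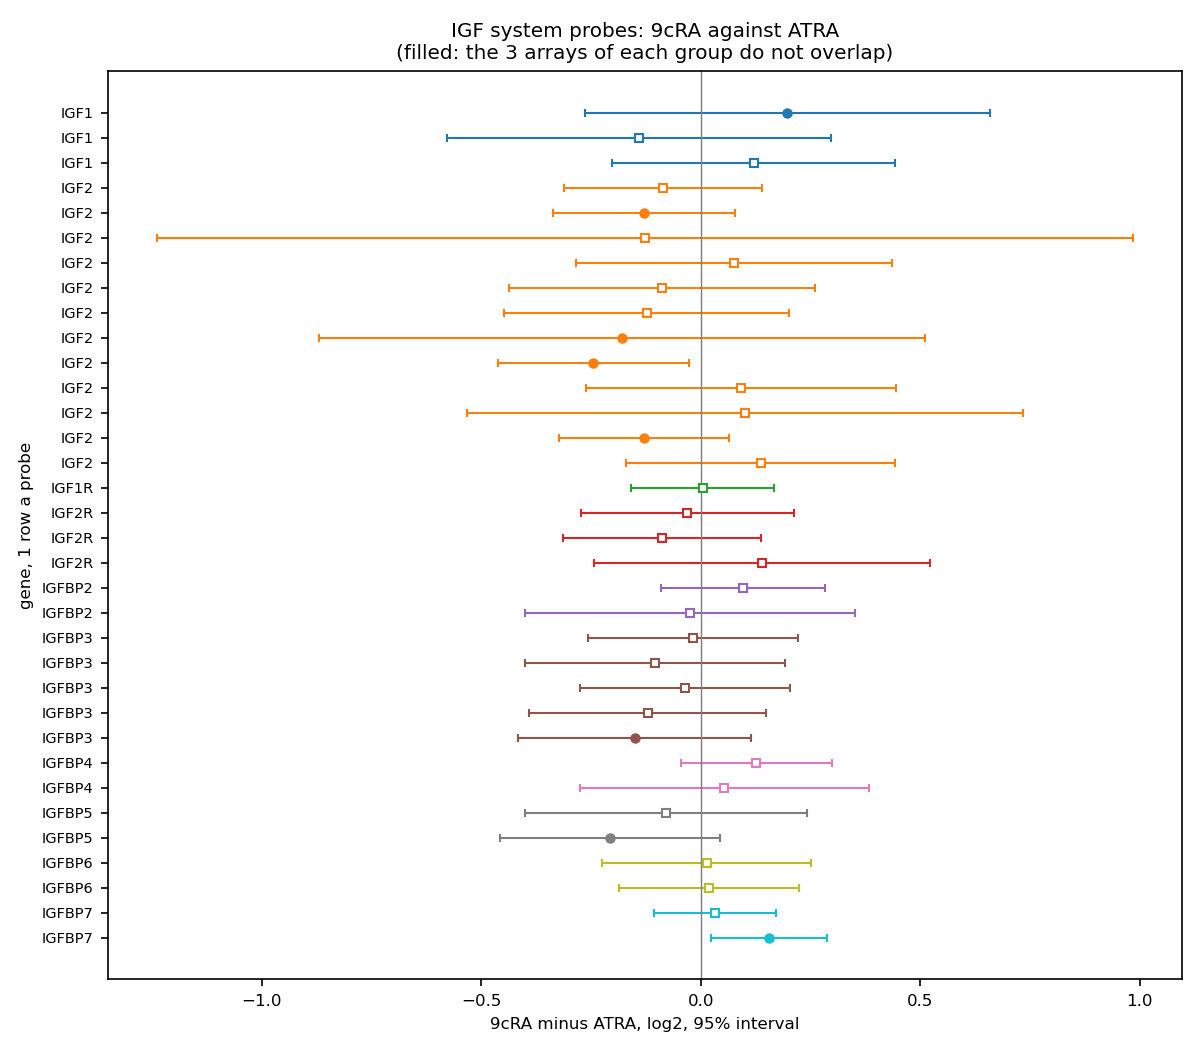
Each row is 1 tested probe, with the log2 difference of 9cRA minus ATRA and its 95% interval; filled points mark the 8 probes whose arrays did not overlap. All differences lie between -0.24 and 0.20.

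Retinoid-treated cells were also compared with day 0, and these comparisons share arrays with those above. ATRA cells had 20 of 34 probes higher and 6 lower, where 35.5% and 34.9% of all tested probes were. For 9cRA cells it was 21 and 8, against 35.7% and 34.1%. The medians were 1.12 and 1.10, against 0.01 and 0.02 over all. Leaving out each probe that any array of the compared groups read too dimly kept 30 in either comparison. Of these, 16 were higher and 6 lower with ATRA, and 17 and 8 with 9cRA. Scaling to the array median turned the 11154 higher and 10636 lower calls of 9cRA against day 0 over all probes into 8890 and 12709. IGF1 stayed above day 0, by 1.07 to 3.41 with ATRA and 0.93 to 3.53 with 9cRA (its weakest probe not called with slide as a block, adjusted p = 0.060 and 0.16), and IGF1R below, by -0.63 and -0.62. IGFBP4 was lower on the probe without the repeat, by -0.55 and -0.42, the latter -0.74 with slide as a block and -0.26 with quantile normalization. With slide as a block 23 of 26 and 20 of 29 calls kept their direction.

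For the 3 members whose brightest probe ranged most between groups, the most similar genes over the 12 arrays were listed as a description. The arrays share 4 groups, so the correlation is mostly that of the group means. IGFBP3 ran closest to RNF122 (r = 0.999), FAM107A (0.998) and HEPH (0.998). Among the genes closest to IGFBP5 were IGFBP3 itself (0.998) and PDGFRA (0.998), the platelet-derived growth factor receptor that marks stromal progenitors. For IGF1 the closest were ANKRD33 (0.997), STIM1 (0.995) and ZNF484 (0.995). IGF2 was not among the 3 because its brightest probe, 945 bases downstream, had a smaller range.

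The rest of the pathway was read through 29 tested genes of 5 lists, 1 probe a gene. From day 0 to the day 6 control 11 rose, 9 fell and 9 were not called. With ATRA 6 were higher, 9 lower and 14 not called, and with 9cRA 7, 9 and 13. Over all tested probes 28.6% rose and 33.1% fell with culture, 21.9% were higher and 21.5% lower with ATRA, and 22.7% and 20.9% with 9cRA, and the counts of each list, of 5 to 8 genes, are to be read against the same shares. None differed between the retinoids. With slide as a block the counts higher and lower were 13 and 11 for culture, 5 and 11 for ATRA and 4 and 9 for 9cRA. Of all 31207 tested probes, the block gave 7308 and 8675 for culture, 5374 and 5885 for ATRA, and 2820 and 3676 for 9cRA. Not found by name on the array were PAPPA2, STC2, HTRA3, IRS2 and HMGA2.

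In the growth hormone axis, 3 of 6 genes rose and 2 fell with culture, and 3 fell and none rose with each retinoid. GHR, the growth hormone receptor, went from 0.22 ± 0.02 (SD, n = 3) at day 0 to 1.19 ± 0.05 in the control, 0.54 ± 0.10 with ATRA and 0.41 ± 0.06 with 9cRA. SOCS2, a feedback inhibitor of that receptor, fell by 1.63 with ATRA and 1.71 with 9cRA. JAK2, its kinase, rose by 0.71 with culture and fell by 0.24 and 0.25 with the retinoids. IGFALS, the subunit that joins IGFBP3 in blood, fell by 1.76 with culture.

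Among the binding protein proteases and their inhibitors, 3 of 5 rose and 2 fell with culture, and 1 was higher and 2 lower with each retinoid. PAPPA, which cleaves IGFBP4, rose by 2.72 with culture, from a day 0 level above background on 1 of 3 arrays. STC1, an inhibitor of PAPPA, was not well above background on any day 0 array and was at least 52.6-fold higher in the control. It was higher than in the control by 1.92 with ATRA and 2.01 with 9cRA, the last not called with slide as a block (1.96, adjusted p = 0.095). HTRA1, a secreted protease, fell by 0.63 with culture and was lower than in the control by 0.31 with ATRA and 0.22 with 9cRA. ADAM9 rose by 1.69 with culture and was lower than in the control by 0.52 with ATRA and 0.67 with 9cRA.

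Of the receptor adaptors and the insulin receptor, 2 of 5 rose and 1 fell with culture, and 1 was higher and 1 lower with each retinoid. SHC1, an adaptor of the receptor kinases, fell by 1.20 with culture and was higher than in the control by 0.68 with ATRA and 0.56 with 9cRA. GRB10, an adaptor that damps the signal, rose by 0.31 with culture and was lower than in the control by 0.41 with ATRA and 0.34 with 9cRA. INSR rose by 0.82 with culture and was not called with retinoid.

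Of 8 other tested proteins with an IGFBP domain, 1 rose and 4 fell with culture. With ATRA 2 were higher and 3 lower, and with 9cRA 3 and 3. IGFBP1, the liver-type binding protein, was not well above background on any day 0 or control array and was above it on all ATRA and 9cRA arrays, at least 1.64-fold and 1.59-fold higher than the control. CCN1, CCN2 and CCN3, matricellular proteins, fell by 1.85, 1.10 and 2.11 with ATRA and by 1.40, 1.00 and 1.99 with 9cRA. ESM1 fell by 1.79 with culture and rose by 0.47 with 9cRA, not called with slide as a block (0.28, adjusted p = 0.45).

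Of 5 genes that bind IGF2 RNA or regulate the locus, 2 rose with culture and 2 were higher with each retinoid, and none fell. H19, the noncoding RNA next to IGF2, was above background on 2 of 3 arrays at day 0 and in the control and on all retinoid arrays, higher by 0.84 with ATRA and 0.89 with 9cRA. Its culture difference was -0.08, or -0.56 with slide as a block (adjusted p = 0.020). IGF2BP2 was above background on no day 0 array and was at least 1.99-fold higher in the control, where 2 of 3 arrays measured it.

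**Figure D4:**
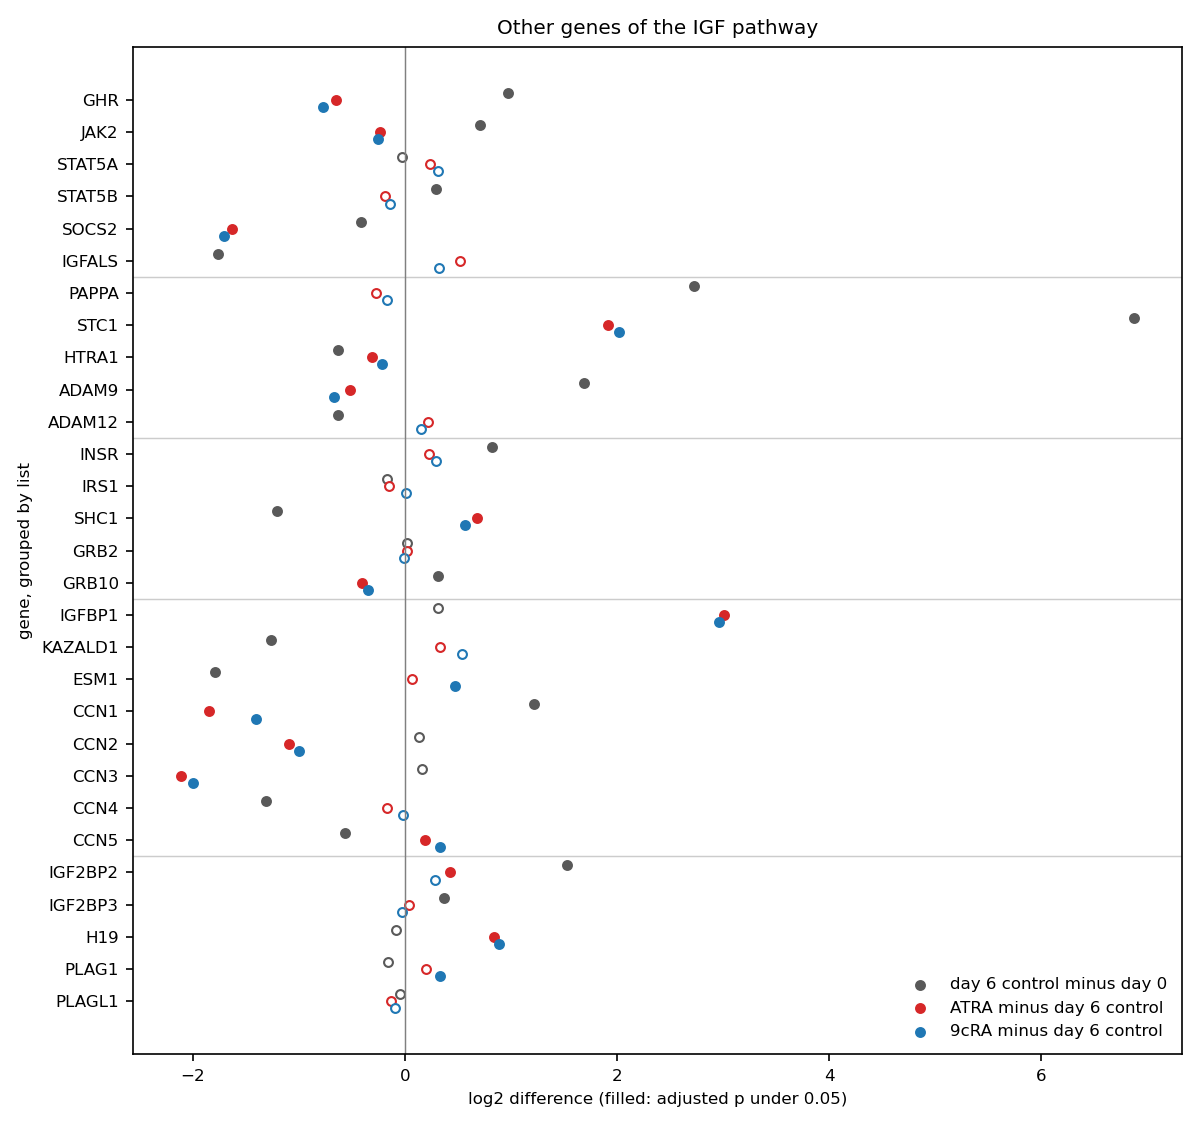
Log2 differences of the 29 other pathway genes, 1 row a gene and grouped by list, for culture (grey), ATRA (red) and 9cRA (blue); filled points have an adjusted p under 0.05. Some differences involve groups not well above background on all 3 arrays, so their sizes are not measured folds. These are those of STC1 and PAPPA with culture and all those of IGFBP1, KAZALD1, IGF2BP2 and H19.

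Besides the IGFBP5 and IGF1R entries, 1 more probe under another name was described as a member. This IGF1 probe was above background on no day 0 array and was at least 2.16-fold higher in the day 6 control, with retinoid differences of 0.05 and -0.11.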

How the data were processed

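Intensity was deposited per array as Agilent Feature Extraction output, whose processed signal is already background-subtracted by the authors' scanner software, per the file headers; the labelled RNA was made from 100 ng total RNA, per the labels' protocols. The authors also deposited a log2 table with 1 column a group, used only as an alternative. Its column medians were -0.01 to 0.02; set against the arrays it holds group means centred on each probe's median over the 12 arrays (r from 0.935 to 0.992), so its direction is that of the arrays. Control spots were left out and spots of a probe averaged. The log2 processed signal minus the array's 75th percentile was fitted with limma 3.58.1 in R 4.3.3: 4 group means over all 12 arrays, lmFit and eBayes, 6 comparisons, two-sided, Benjamini-Hochberg over all 31207 tested probes of each; a call is an adjusted p under 0.05. The number of arrays limits the precision. Folds are powers of 2 of the difference. Scripts were tested on simulated data. All probes of every member were read, and some are given only within a range over the probes of the gene. Of each pathway list, up to 4 genes with the smallest adjusted p in a comparison are named. The members and lists were chosen with earlier results of these data known. Sequences are the probes in the files. Alternatives were background correction, scaling, dim-probe filters, slide, 1 probe a gene, fewer arrays and the authors' table. Of the genes most similar to IGFBP5, 1 is not reported here.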

Additional observations from a re-analysis of the deposited data

How the results depend on the processing

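Of 121 called differences of the members, 97 kept their call and direction in every alternative in which they were recomputed, and 85 of 2478 values lost it. The authors' table has no p-values, so its values were counted as kept by direction alone. IGF2's probe 649 bases downstream went from -0.08 to 1.28 for culture with slide as a block, and the IGFBP4 TG-repeat probe from 0.17 to -0.40 for ATRA against day 0 (adjusted p = 0.029 and 0.042); the cause was not tested. With 1 probe a gene, where at most 10 can be called, the member calls were 7 for culture, 6 for ATRA and 6 for 9cRA against the control, and 7 and 8 for ATRA and 9cRA against day 0. In the same order, 11055, 8177, 8233, 12657 and 12630 of all 17716 genes were called. Leaving out 1 array gave 20 to 22 member calls for culture, 20 to 22 for ATRA and 20 to 23 for 9cRA against the control, 25 to 27 for ATRA and 27 to 29 for 9cRA against day 0, and 0 between the retinoids. Over all probes, slide as a block gave 6496 calls in place of 13584 for 9cRA against the control, 11586 in place of 21790 for 9cRA against day 0 and 14526 in place of 21971 for ATRA against day 0. The shared slide alone gave 8789 in place of 13566 for ATRA against the control. Calls between the retinoids were 47, and 0 to 83 in the alternatives. Median scaling moved the all-probe median from 0.01 to -0.12 for ATRA and from 0.02 to -0.11 for 9cRA against day 0. The arrays of each group are numbered, but nothing says that equal numbers belong together, so no paired analysis was made. Signal near background limits IGF1, IGF2 and PAPPA at day 0.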
